A study of Mus musculus with 2 samples.

Results

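The MHC class II presentation genes are 10 genes that build, load and switch on the class II molecule. They were taken by symbol from the 55487 genes of the deposited matrix, and all 10 symbols were found: H2-Aa, H2-Ab1, H2-Eb1, Cd74, H2-DMa, H2-DMb1, H2-DMb2, H2-Oa, H2-Ob and Ciita.

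MHC class II molecules display peptides to CD4 T cells. In the thymus, medullary epithelial cells (mTEC) use them to show self-peptides to developing T cells, which bears on the deletion of self-reactive cells and on the making of regulatory T cells. The invariant chain, encoded by Cd74, holds a new class II molecule until DM swaps the invariant chain fragment for a peptide, and DO restrains DM. The transactivator CIITA, which does not itself bind DNA, switches on the other genes of the group from the X and Y boxes of their promoters.

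The cells were sorted from thymi of C57BL/6 mice as Pdpn-CD104- mTEClo. The name mTEClo is used in this field for mTEC with little class II at the surface, and the sources used here give no gate for it. The 3 samples named Hnf4ctrl were Foxn1(cre/+) Hnf4a(fl/+) Hnf4g(+/-), and the 4 samples named Hnf4dTEC were Foxn1(cre/+) Hnf4a(fl/fl) Hnf4g(-/-). All 7 samples thus carried Foxn1-cre, which recombines floxed alleles in thymic epithelium, and the controls carried single defective copies of both Hnf4 genes rather than being wild type. Cells of each sample carried a separate barcoded antibody to H2-Kb, a class I molecule, and all were run together in 1 droplet library with 3′ chemistry. The labels do not say whether samples were separate animals, so p-values measure only the spread between these samples.

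The authors' cell table gave 9185 cells a sample and 1 of 15 classes, 3295 cells from controls and 5890 from mutants. Samples held 801 to 1652 cells, 10127838 to 25821970 UMIs (tags that each mark 1 captured RNA molecule) and medians of 11528 to 15053 UMIs per cell. No barcode was shared between samples. The epithelial genes Epcam and Krt8 stood at 937 and 1660 CPM (UMIs per 1000000 UMIs) over all cells. Of the endothelial genes, Cdh5 had 13 UMIs in all, Emcn 87 and Pecam1 658. Of the dendritic cell genes, Siglech had 4, Itgax 26, Xcr1 62 and Flt3 115. Other genes on the same haematopoietic list were far higher, with 49732 UMIs of Cd52, 36163 of Laptm5, 32277 of Lyz2, 26209 of Rac2 and 3000 of Ptprc. The fibroblast genes ranged from 64 UMIs of Lum to 1334 of Dcn. The epithelial gene Foxn1 stood at only 28.0 CPM. These counts were not used to tell how pure the cells were. Hnf4g stood at 116 to 122 CPM in controls and 78.1 to 88.4 in mutants, and Hnf4a at 1.68 to 3.18 and 0.673 to 2.27. The labels do not name the deleted exons, so these 3′ counts do not check the genotypes.

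Of the 10 genes, 8 lie within 224 kb of chromosome 17, from position 34092340 to 34316674 of mm10, while Ciita lies at chr16:10480059-10528418 and Cd74 on another chromosome. RefSeq promoter entries (GRCm38.p6) were matched for 7 of the 10 genes, with 8 entries in all, of which H2-DMa has more than 1, and not for H2-Ab1, Cd74 and Ciita. The following 50-base stretches end with a match to the Y box core, and are shown because they hold letter matches to the X and Y boxes through which CIITA and its partners are known to act. They are written 5′ to 3′ on the gene's strand, and capitals mark an RFX core of the X box (GNAAC), the X box end (ATGATGC) and the Y box core (GATTGG).
H2-Aa: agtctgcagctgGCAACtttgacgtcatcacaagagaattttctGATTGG
H2-Eb1: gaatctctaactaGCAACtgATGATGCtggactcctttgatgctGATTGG
H2-Ob: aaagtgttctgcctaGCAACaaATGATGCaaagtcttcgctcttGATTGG
H2-Oa: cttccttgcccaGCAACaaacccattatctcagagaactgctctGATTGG
H2-DMb2: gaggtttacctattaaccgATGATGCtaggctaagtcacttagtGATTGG

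The stretches lie at chr17:34287867-34287916 on the minus strand for H2-Aa, and on the plus strand at chr17:34305763-34305812 for H2-Eb1, chr17:34238803-34238852 for H2-Ob, chr17:34092291-34092340 for H2-Oa and chr17:34145114-34145163 for H2-DMb2. In GENCODE M21 (mm10) the H2-Ob and H2-Aa stretches lie in no gene, that of H2-Eb1 lies in Gm20513 outside its exons, that of H2-DMb2 lies in an intron of H2-DMb2, and that of H2-Oa lies in BC051537 and holds 1 exon base of H2-Oa. The Y box core begins at positions from -91 to -44 relative to the RefSeq start. On either strand of the 250 bases before the start, GATTGG was present in 7 of the 8 member entries and in 14.6% of all 32851 promoters, and ATGATGC in 4 member entries and 1.99% of promoters. GNAAC followed by GATTGG 12 to 40 bases later was present in 5 member entries, always with 24 to 27 bases between them, and in 1.39% of promoters. The H2-Aa and H2-Oa stretches lack ATGATGC. The H2-DMb2 stretch has no GNAAC before its Y box, and the matching stretch of H2-DMb1, which does, has the same base at 45 of 50 positions. Of the H2-DMa entries, not printed, 1 holds GATTGG at -199 with neither of the other matches before it, and the other holds no GATTGG. These are matches of letters and not measured binding.

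Levels below are CPM of a sample's cells of 1 class, averaged over samples with at least 10 cells of that class. The classes came from the expression of all genes, so differences between classes are described without a test. All 10 members were highest in 1 of 3 classes: H2-Aa, H2-Ab1, H2-Eb1, Cd74, H2-DMa and H2-DMb2 in Aire-expressing cells, H2-DMb1, H2-Oa and H2-Ob in Aire-adjacent cells, and Ciita in Transitional cells. The 4 classes Aire-expressing, Aire-adjacent, TA and Transitional, grouped after their values were seen, made up 22.2% of cells and held 74.5% of the H2-Aa UMIs, 77.2% of those of Cd74, 84.5% of those of Ciita and 87.3% of those of H2-DMb2. H2-DMb1 was the least concentrated member, with 44.5% of its UMIs in those classes and 27.1% in Tuft cells, which were 44.8% of all cells.

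**Figure D1:**
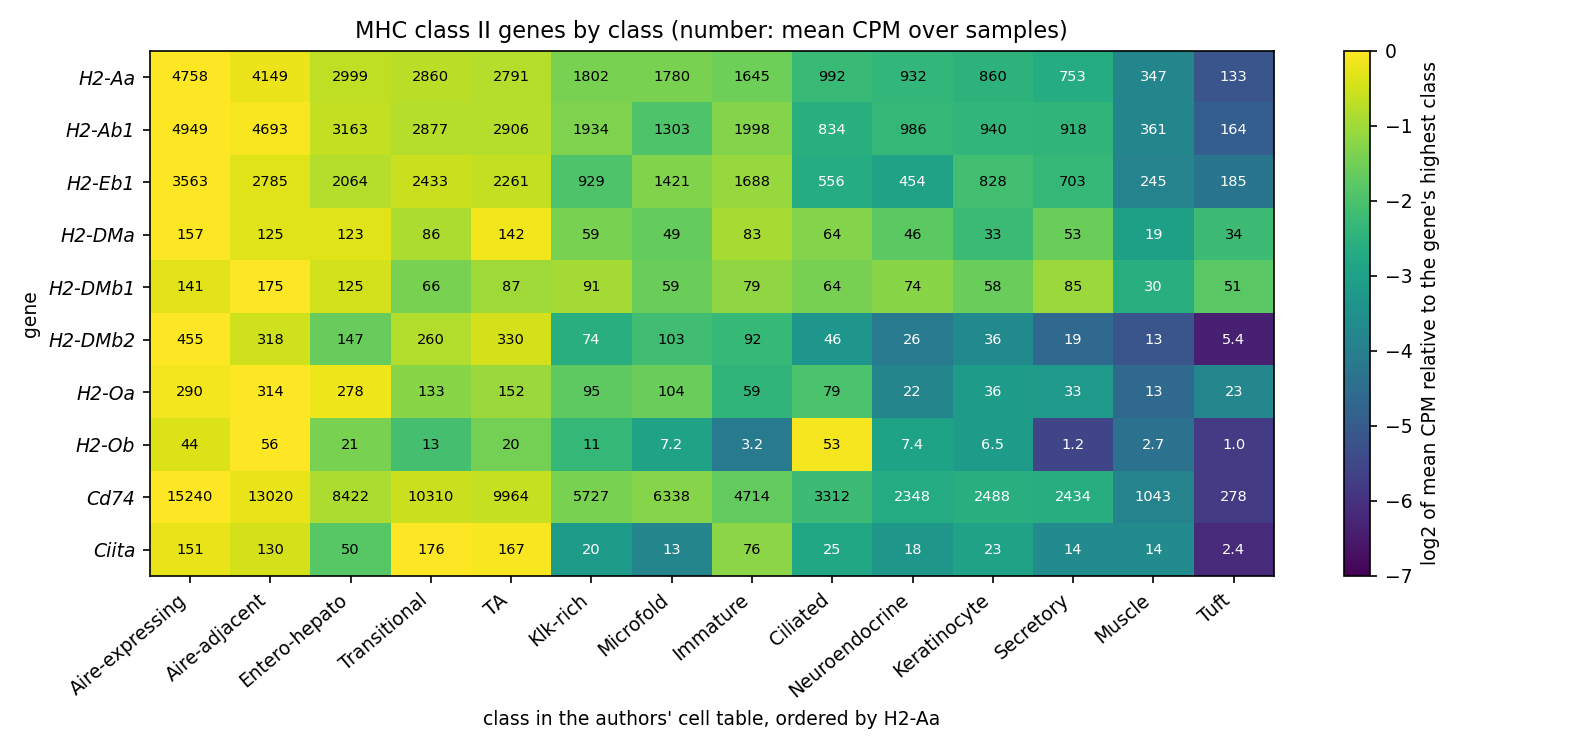
Mean CPM over samples of each class II gene (rows) in 14 classes of the authors' cell table (columns, ordered by H2-Aa); colour gives the log2 of that mean relative to the gene's highest class. The left columns are bright for every gene, and the Tuft column at the right is darkest for H2-DMb2 (5.45 CPM) and Ciita (2.44 CPM) and least dark for H2-DMb1 (51.1 CPM).

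H2-Aa and H2-Ab1 encode the alpha and beta chains of I-A, the class II molecule of this strain. H2-Aa averaged 4758 ± 451 CPM in Aire-expressing cells (SD, n = 7 samples, 4261 to 5400, median 4738) and 4149 ± 625 in Aire-adjacent cells (n = 7), the former higher in 6 of 7 samples. Entero-hepato cells reached 10 cells in only 2 samples, both controls, with 2369 and 3630 CPM. Transitional cells (2860 ± 212, n = 7) and TA cells (2791 ± 135, n = 7) followed and did not differ beyond their spread, with Transitional higher in 4 of 7 samples. Klk-rich (1802, n = 5), Microfold (1780 ± 285, n = 6) and Immature cells (1645 ± 185, n = 7) formed a middle group, and Ciliated, Neuroendocrine, Keratinocyte and Secretory cells a lower one, at 992 to 753 CPM. Within that lower group no class was higher than the next in more than 4 of 7 samples. Muscle cells stood at 347 CPM (n = 5).

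Tuft cells were lowest for H2-Aa among the classes with at least 10 cells in every sample, at 120 to 155 CPM (mean 133 ± 11.8, n = 7). The level in Aire-expressing cells was 30.9 to 45.01 times that in Tuft cells of the same sample. H2-Ab1 kept nearly the same order, from 4949 ± 371 in Aire-expressing to 164 ± 15.8 in Tuft cells.

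H2-Eb1 encodes the beta chain of I-E, whose alpha chain gene, H2-Ea, is defective in C57BL/6. The data held 20 UMIs of H2-Ea over all cells. H2-Eb1 was abundant all the same, at 3563 ± 310 CPM in Aire-expressing cells and 185 ± 13.6 in Tuft cells (n = 7 each). Relative to H2-Ab1 it varied by class, with 1.13 UMIs per H2-Ab1 UMI in Tuft and 1.09 in Microfold cells against 0.731 in Aire-expressing, 0.479 in Klk-rich and 0.465 in Neuroendocrine cells. The Tuft ratio lay between 1.03 and 1.18 in the 7 samples and the Neuroendocrine ratio between 0.428 and 0.488, so these ranges did not overlap. Ratios of UMIs between genes also hold differences in 3′ capture and are compared here only between classes.

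H2-Eb2, a second E beta gene beside H2-Eb1 and no member of the set, was more restricted. It had 406 ± 42.4 CPM in Aire-expressing and 348 ± 77.8 in Aire-adjacent cells but 11.0 ± 5.11 in Immature and 8.26 ± 3.19 in Secretory cells (n = 7 each), although Immature cells held H2-Eb1 at 1688 ± 206. Per H2-Eb1 UMI this was 0.114 in Aire-expressing and 0.00640 in Immature cells.

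Cd74, the invariant chain, averaged 15240 ± 815 CPM in Aire-expressing, 13020 ± 1718 in Aire-adjacent, 10310 ± 710 in Transitional, 9964 ± 616 in TA, 4714 ± 720 in Immature and 278 ± 42.0 in Tuft cells (n = 7 each). There were between 2.56 and 3.57 UMIs per H2-Aa UMI in 13 of the 14 classes and 2.08 in Tuft cells. The Tuft values of 1.74 to 2.52 per sample fell below all 7 of the Aire-expressing class, which were 2.95 to 3.73. They overlapped those of Neuroendocrine (2.11 to 2.83), Klk-rich (2.11 to 4.08), Muscle (2.35 to 3.68) and Microfold cells (2.36 to 5.31).

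Ciita, the transactivator, did not share the order of its targets. It was highest in Transitional (176 ± 17.6 CPM) and TA cells (167 ± 12.6), ahead of Aire-expressing (151 ± 14.4) and Aire-adjacent cells (130 ± 21.9, n = 7 each). Each of these neighbours was higher than the next in 5 of 7 samples only. Immature cells held 76.4 ± 19.9, Microfold cells 12.6 ± 8.42 (n = 6, 3.59 to 28.0) and Tuft cells 2.44 ± 0.864 CPM.

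Per Ciita UMI there were therefore 16.9 H2-Aa UMIs in TA and 17.1 in Transitional cells but 32.0 in Aire-expressing and 32.3 in Aire-adjacent cells. The TA samples lay between 15.2 and 18.8 and the Aire-expressing samples between 25.5 and 38.2, without overlap. The ratio was 64.4 in Entero-hepato and 139 in Microfold cells, the latter resting on 26 Ciita UMIs in all. Microfold cells thus held H2-Aa at about the level of Immature cells with 12.7 against 76.8 CPM of Ciita over all samples together. The counts do not separate the Ciita promoters from which its isoforms start, and a gene on the opposite strand, Dexi, overlaps Ciita.

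**Figure D2:**
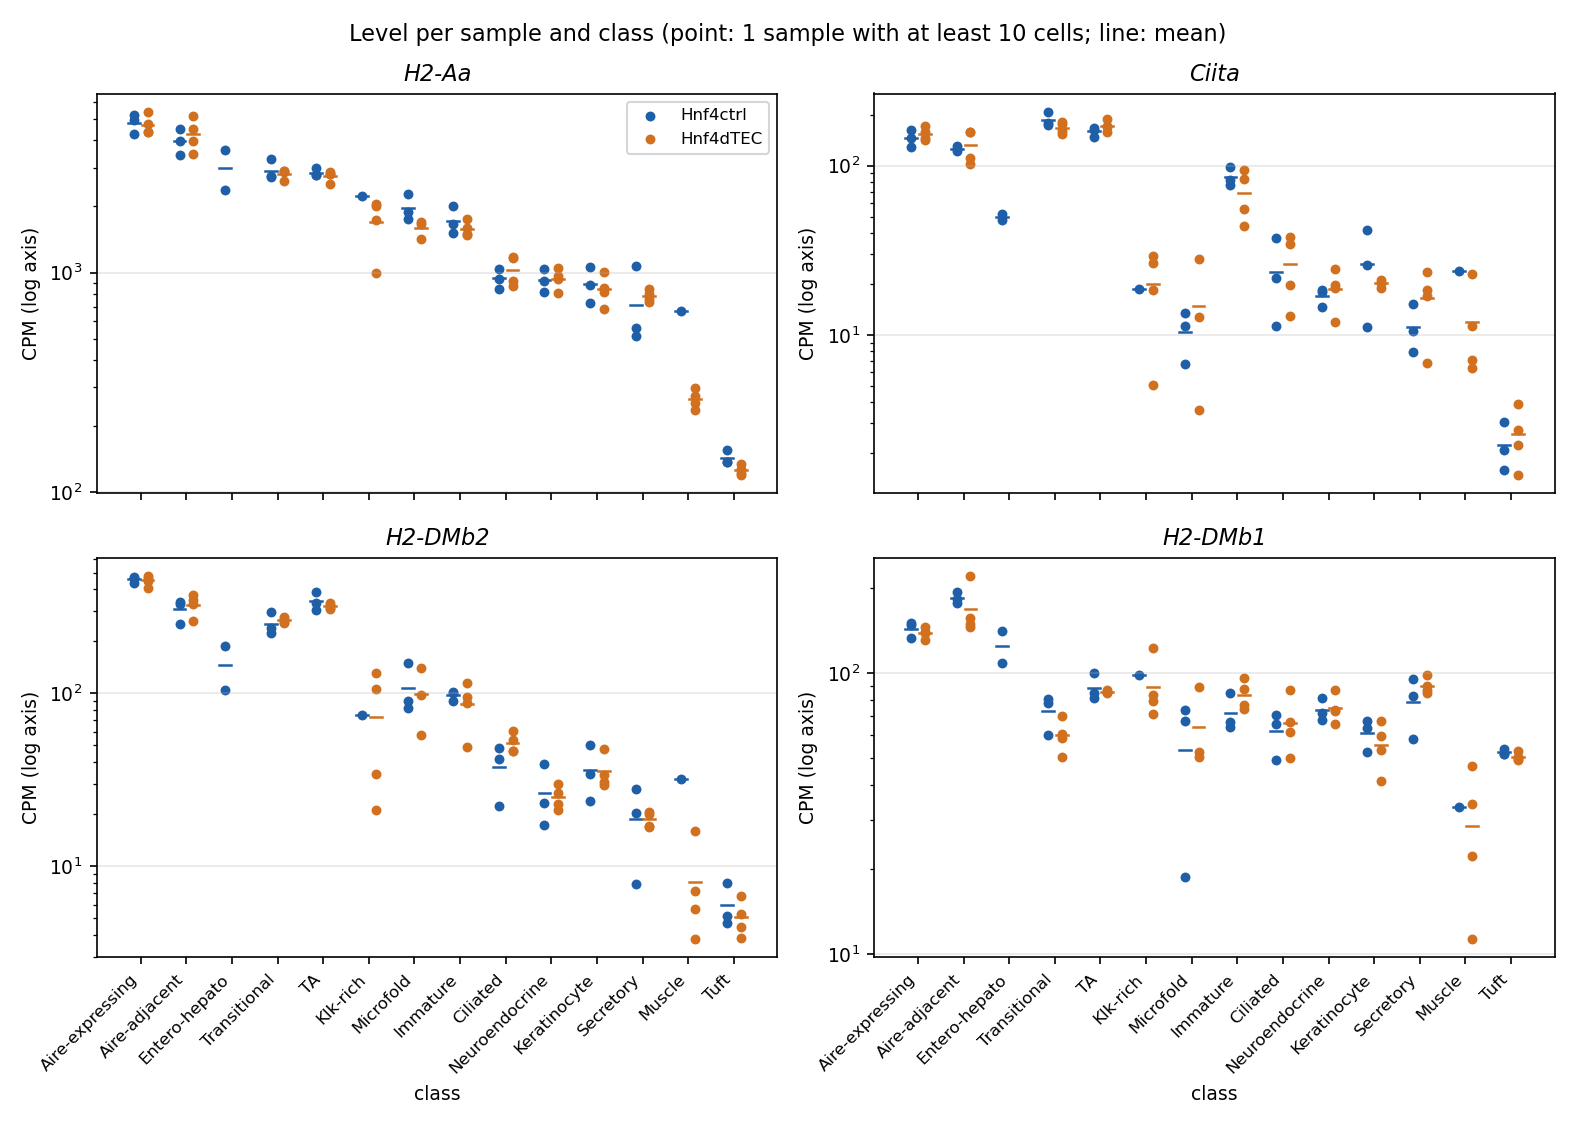
Level in CPM (log axis) of H2-Aa, Ciita, H2-DMb2 and H2-DMb1 in each class; each point is 1 sample with at least 10 cells, lines are group means, blue is Hnf4ctrl and orange Hnf4dTEC. Points of both genotypes lie together in nearly every class, H2-DMb2 goes from 455 CPM in Aire-expressing to 5.45 in Tuft cells, and H2-DMb1 spans only 175 to 29.5 CPM.

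DM is made of the alpha chain H2-DMa and of 1 of the beta chains H2-DMb1 and H2-DMb2, which are neighbouring copies. The beta chain genes had different profiles over the classes. H2-DMb2 went from 455 ± 25.1 CPM in Aire-expressing and 330 ± 27.4 in TA cells to 91.6 ± 20.7 in Immature, 18.7 ± 6.05 in Secretory and 5.45 ± 1.42 in Tuft cells (n = 7 each), the widest span of all members. H2-DMb1 went from 175 ± 27.2 in Aire-adjacent and 141 ± 7.29 in Aire-expressing to 87.1 ± 5.97 in TA, 85.1 ± 13.2 in Secretory and 51.1 ± 1.68 in Tuft cells (n = 7 each), with the lowest mean in Muscle cells (29.5, n = 5).

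The H2-DMb2 to H2-DMb1 ratio was 4.27 in Transitional, 3.79 in TA and 3.21 in Aire-expressing cells, 1.21 in Immature cells and lower in Keratinocyte (0.628), Neuroendocrine (0.343), Secretory (0.221) and Tuft cells (0.104). In single samples it was 3.63 to 3.95 in TA and 0.0768 to 0.149 in Tuft cells. These ranges did not overlap. In the last 500 bases of their transcripts, 27.4% of the 50-base words of H2-DMb1 also occur in H2-DMb2, and 13.6% of those of H2-DMb2 occur in the transcripts of 164 other genes, so part of the split between the copies, and of the H2-DMb2 count, depends on how the authors' counting placed such reads.

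H2-DMa ranged from 157 ± 10.46 CPM in Aire-expressing and 142 ± 12.1 in TA cells to 34.1 ± 2.43 in Tuft and 33.2 ± 3.30 in Keratinocyte cells (n = 7 each) and 19.1 ± 8.20 in Muscle cells (n = 5), a narrower range than that of the peptide-binding chains. As a share of H2-Aa UMIs it was 2.90% to 6.79% in 13 of the 14 classes and 25.9% in Tuft cells (23.0% to 29.4% in the 7 samples). H2-DMa overlaps Brd2 on the opposite strand in the annotation.

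DO is made of H2-Oa and H2-Ob. H2-Oa was high in Aire-adjacent (314 ± 95.3 CPM), Aire-expressing (290 ± 43.8) and Entero-hepato cells (187 and 370 in 2 control samples), lower in TA (152 ± 13.2) and Transitional (133 ± 10.9), and 23.1 ± 1.79 in Tuft cells (n = 7 where not stated). Aire-adjacent cells were higher than Aire-expressing cells in only 3 of 7 samples. BC051537 overlaps H2-Oa on the opposite strand. Relative to H2-DMa, H2-Oa was highest in Aire-adjacent cells, at 2.53 UMIs per UMI (2.115 to 2.884 in the 7 samples). Entero-hepato cells had 2.36 (1.955 to 2.452, n = 2) and Microfold cells 2.04 (1.375 to 4.8, n = 6), so these ranges overlapped. The ratio was 1.86 in Aire-expressing, 1.07 in TA and 0.671 in Tuft cells.

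H2-Ob had its own pattern. Ciliated cells, which ranked below 8 other classes for H2-Aa, held H2-Ob at 63.6, 48.6 and 54.4 CPM in controls and 71.6, 44.7, 38.6 and 46.7 in mutants. Their mean of 52.6 ± 11.5 (n = 7) was close to that of Aire-adjacent cells (56.3 ± 17.3, n = 7), which was higher in 4 of 7 samples, and above that of Aire-expressing cells (43.7 ± 10.3, n = 7) in 6 of 7. All other classes averaged at most 21.1 CPM, and Tuft cells 1.03 ± 0.440.

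The Ciliated values rest on 252 H2-Ob UMIs. After each cell was thinned to 5000 UMIs, 23.8% of Ciliated cells held an H2-Ob UMI, against 19.6% in Aire-expressing, 3.91% in Neuroendocrine and 0.515% in Tuft cells. Without thinning the shares were 57.4%, 48.3%, 7.64% and 1.19%, at median depths of 23527, 18154, 12224 and 12186 UMIs per cell. Its partner H2-Oa was at 78.9 ± 17.3 CPM in Ciliated cells, so there were 0.679 H2-Ob UMIs per H2-Oa UMI (0.472 to 0.810 in the 7 samples) against 0.154 in Aire-expressing cells (0.124 to 0.187).

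**Figure D3:**
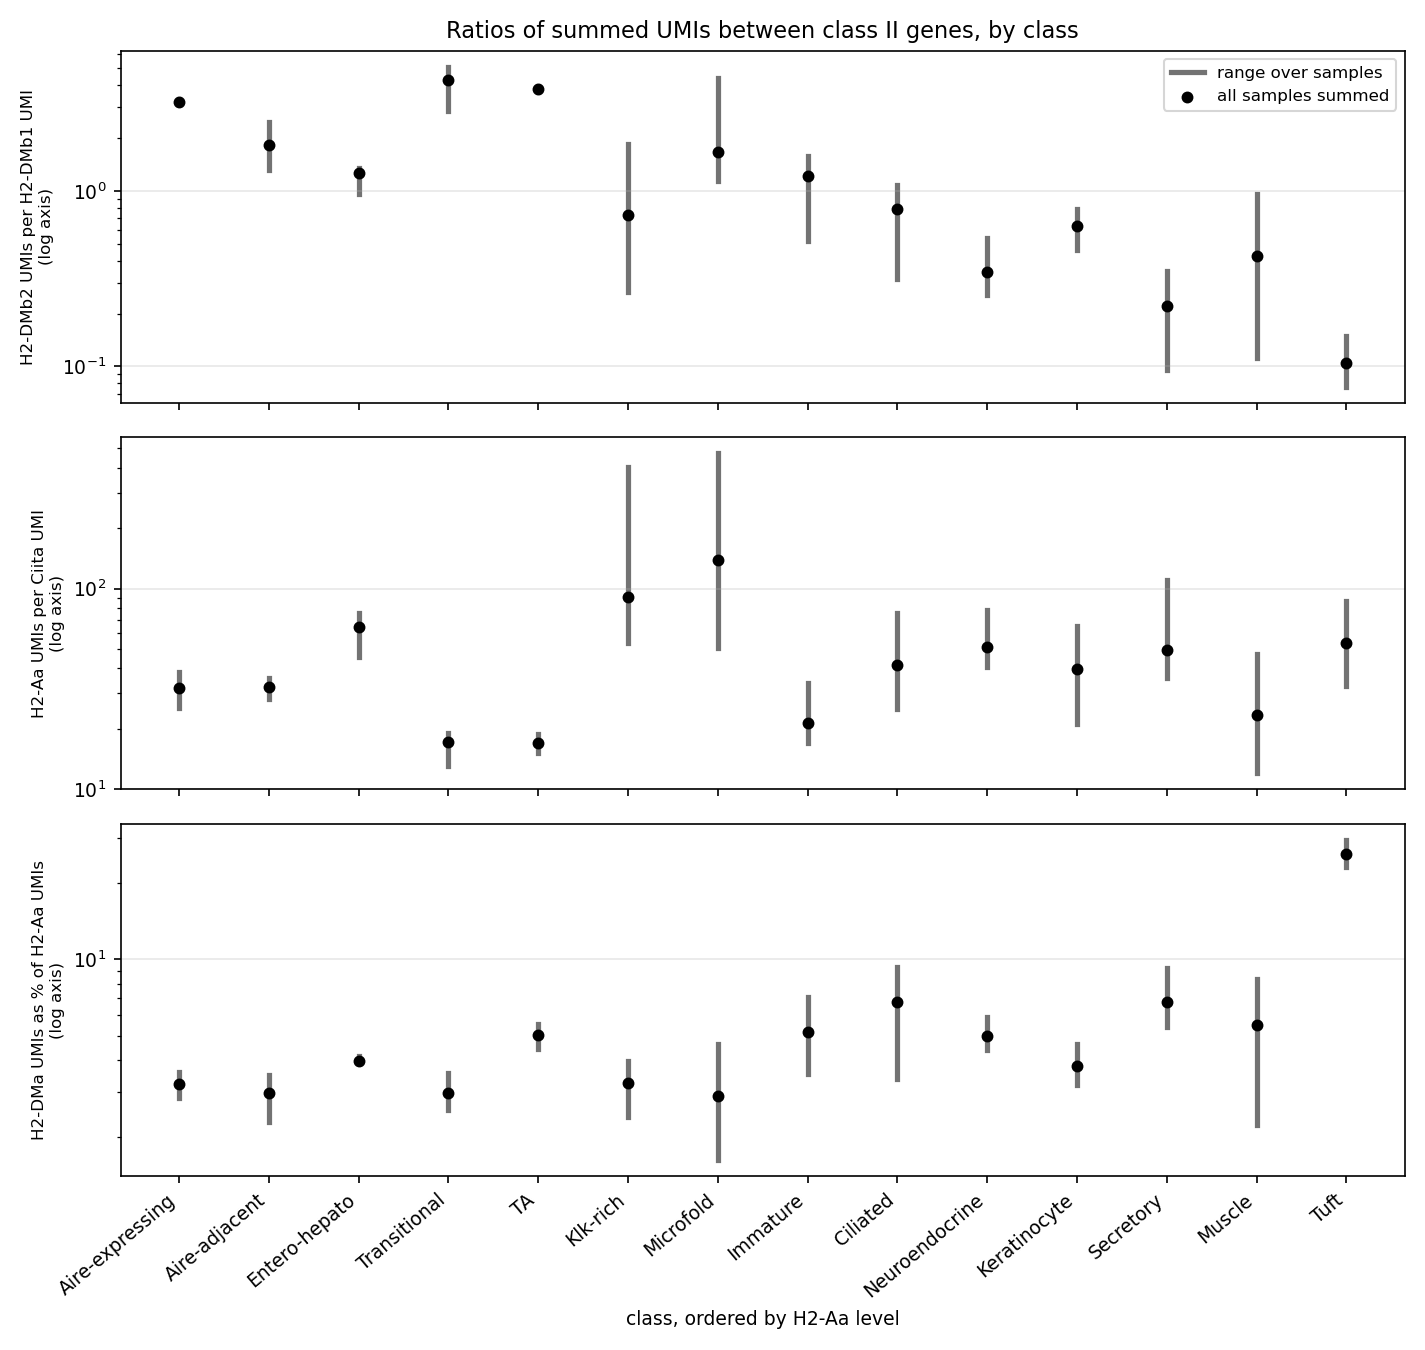
Ratios of summed UMIs by class on log axes: H2-DMb2 per H2-DMb1, H2-Aa per Ciita, and H2-DMa as a percentage of H2-Aa; dots are all samples summed and bars the range over samples with at least 10 cells. The first ratio goes from 4.27 in Transitional to 0.104 in Tuft cells, the second is lowest in TA and Transitional cells (16.9 and 17.1), and the last stands at 25.9% in Tuft cells.

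In droplet data free RNA can put a few UMIs of a gene into cells that do not make it. Aire, which Tuft cells are not known to use, stood at 764 ± 23.1 CPM in Aire-expressing and 11.2 ± 1.44 in Tuft cells (n = 7 each), so the Tuft level was 1.44% of the Aire-expressing level. In the other direction, the tuft gene Trpm5 had a UMI in 8.26% of thinned Aire-expressing and 91.9% of Tuft cells. On the same scale Tuft cells held 1.16% of the Aire-expressing level of H2-DMb2, 1.61% of Ciita, 1.79% of Cd74 and 2.18% of H2-Ob, near the figure for Aire. The figures were 2.70% for H2-Aa, 3.25% for H2-Ab1, 5.03% for H2-Eb1, 7.85% for H2-Oa, 21.7% for H2-DMa and 35.8% for H2-DMb1. The members therefore did not keep 1 ratio between these classes, and the lowest Tuft values are at the level that free RNA could give. How far free RNA enters the higher figures was not tested. Members found in more classes than Aire may give more of it.

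Single cells showed the same separation. Counting the UMIs of all 10 members in cells thinned to 5000 UMIs, Aire-expressing cells had a median of 147 and 754 of 775 had at least 50, while Tuft cells had a median of 3 and 12 of 3882 had at least 50. Transitional cells had a median of 95.5, TA cells 93, Immature cells 49 and Secretory cells 18. Keratinocyte cells were mixed, with a median of 12 but at least 50 in 125 of 705 cells. Thinning left out 192 of 3295 control and 319 of 5890 mutant cells with fewer UMIs.

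Over the 12 classes with at least 2 control samples of at least 10 cells, the profile of H2-Aa (log2 of control means plus 1) had a correlation with those of Cd74 (Pearson r = 0.994), H2-Ab1 (0.982), H2-DMb2 (0.962), H2-Eb1 (0.957), Ciita (0.875), H2-Oa (0.833), H2-DMa (0.790), H2-Ob (0.696) and H2-DMb1 (0.658). The points are classes that share 1 library and differ in depth. Among 7940 genes with a mean of at least 20 CPM over these classes, the non-members most like H2-Aa were AU020206 (r = 0.954), Apobec3 (0.941), Birc2 (0.936), Gm43305 (0.911) and Relb (0.909). Those most like Ciita were Msc (0.982), Calcrl (0.939), Cxcl11 (0.933), CT868690.1 (0.920) and Slc1a3 (0.919).

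Genes that work beside the members did not all follow them. Rfx5, the DNA-binding partner at the X box, was at 5.40 to 19.1 CPM in all 14 classes, with r = 0.057 to H2-Aa over 12 classes of controls. Entero-hepato cells held only 0 and 9 Rfx5 UMIs in controls 2 and 3, and Microfold cells 2, 0 and 3 in the 3 controls. That r thus rests in part on very few counts. Ctss, a protease that trims the invariant chain, was at 221 ± 16.9 CPM in Aire-expressing and 12.9 ± 1.11 in Tuft cells, whereas Ctsl, the protease of cortical epithelium, was highest in Immature cells (933 ± 262) and at 52.0 ± 45.6 in Aire-adjacent cells (n = 7 each). Ifi30, a reductase of endosomes, was at 756 ± 68.3 CPM in Aire-expressing cells and 706 ± 75.4 in TA cells (n = 7 each). Lgmn, an endosomal protease, was highest in Ciliated cells (43.2 ± 17.95, n = 7). Sppl2a, which cleaves the last invariant chain remnant, was highest in Secretory cells (320 ± 32.9) and at 59.9 ± 5.03 in Tuft cells (n = 7 each).

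Class I genes were spread more evenly. H2-K1 lay between 1707 and 5618 CPM over the 14 classes and B2m between 2132 and 5596. H2-K1 was 2707 ± 138 in Tuft and 2425 ± 165 in Aire-expressing cells (n = 7 each), the former higher in 6 of 7 samples. H2-K1 encodes the class I chain that the hash antibodies bind. Nlrc5, the class I counterpart of CIITA, was highest in Immature cells (104 ± 16.2, n = 7).

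The comparison of the study is loss of Hnf4a and Hnf4g against the heterozygous controls. Over all cells, H2-Aa stood at 985, 1442 and 2089 CPM in controls and at 1152, 1159, 1486 and 1715 in mutants. Cd74 stood at 3113, 4442 and 6580 in controls and at 3731, 3859, 4631 and 5542 in mutants. Both control extremes lay outside the mutant range, so the genotypes overlapped fully. Ciita stood at 34.5, 50.9 and 72.3 in controls and at 46.0, 46.7, 51.3 and 66.6 in mutants. H2-DMb1 was steadiest, at 68.0, 78.8 and 84.4 against 70.3, 71.2, 73.7 and 76.4. The other 6 members overlapped in the same way, so 0 of 10 had genotypes apart, beside 7.85% of all genes tested.

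None of the 10 members passed an adjusted p of 0.05 over all cells with edgeR's quasi-likelihood test, 0 had an unadjusted p under that value, and DESeq2 also called 0. The background was 39 of 21187 genes (0.184%). For H2-Aa the log2 fold change, mutants over controls, came to -0.12 (SE 0.25, 95% interval -0.70 to 0.46, edgeR adjusted p = 0.996), for Cd74 -0.08 (SE 0.25, adjusted p = 1.00) and for Ciita 0.00 (SE 0.24, adjusted p = 1.00). The member median was -0.08, beside 0.00 over all genes tested. The intervals lay within a 2-fold change for 10 of 10 members but within 1.5-fold for 3. The direction rested on control 3: without it H2-Aa stood at 0.19 and Cd74 at 0.24 on the log2 scale, and without control 1 at -0.35 and -0.30. Fewer cells of a class and less RNA per cell cannot be told apart in such sums.

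The order of the samples followed their mix of classes. The classes named next were grouped after their values were seen, so a rise of H2-Aa with their share is built in. The share of Aire-expressing, Aire-adjacent, TA and Transitional cells was 12.7%, 19.9% and 32.7% in controls and 17.7%, 17.7%, 20.7% and 28.7% in mutants. The lowest and highest H2-Aa levels belonged to the controls with the lowest and highest shares, and the part of this mix in the result was not tested. Fits without Tuft cells and with classes weighted equally called 0 of 10 members. The main fit had also called 0, so these counts cannot show what part the mix had.

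**Figure D4:**
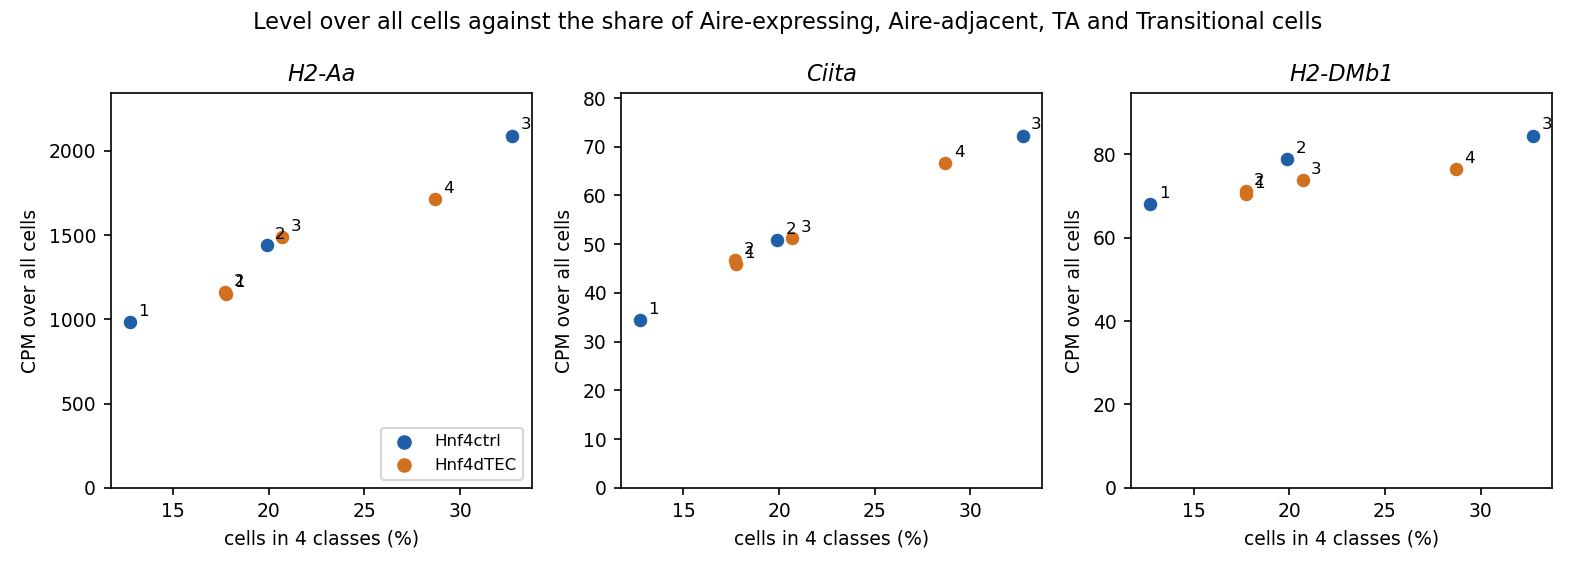
CPM over all cells of H2-Aa, Ciita and H2-DMb1 against the percentage of a sample's cells in the Aire-expressing, Aire-adjacent, TA and Transitional classes; each numbered point is 1 of 7 samples, blue Hnf4ctrl and orange Hnf4dTEC. H2-Aa lies at 985 CPM in the sample with 12.7% and 2089 in that with 32.7%, with the mutant samples between them, and H2-DMb1 lies between 68.0 and 84.4. The classes were grouped after their values were seen, so a rise of H2-Aa with their share is built in.

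Within classes the comparison is free of that mix. In 11 classes with at least 3 samples per genotype, 104 pairs of a member and a class could be tested, and 0 passed with edgeR, beside 210 of 109202 pairs over all genes (0.192%). An unadjusted p under 0.05 was reached by 3 pairs, beside 6.38% of pairs over all genes, and DESeq2 likewise called 0 and had 3 under that value. By class the share of all genes called was 3.03% in Microfold, 0.389% in Neuroendocrine, 0.0881% in Tuft, 0.0799% in Keratinocyte and 0.0314% in Secretory cells and 0.0% in the other 6. Of the 104 log2 fold changes 49 were above 0 and 55 below, with a median of -0.01 beside 0.00 over all genes. H2-Ob in 5 classes (Immature, Keratinocyte, Microfold, Secretory and Tuft) and Ciita in Microfold cells had too few counts to be tested.

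The comparison was most precise in TA cells. The 95% intervals of all 10 members lay within a 1.5-fold change there, and those of 6 within 1.2-fold. SEs and intervals were worked back from the F value of the test, and some are narrower than the p-value allows. H2-Oa in TA cells had -0.06 (SE 0.10) with an unadjusted edgeR p of 0.803. H2-DMb1 in Transitional cells had -0.17 (SE 0.17) with an unadjusted edgeR p of 0.508. H2-Ab1 in TA cells had a log2 fold change of -0.04 (SE 0.04, interval -0.13 to 0.05), Cd74 -0.07 (SE 0.05) and Ciita 0.16 (SE 0.09, interval -0.05 to 0.36), each with an edgeR adjusted p of 1.00. In Aire-expressing cells the intervals of 9 of 10 members lay within 1.5-fold, with Cd74 at -0.0019 (SE 0.06), H2-DMb2 at 0.01 (SE 0.08) and H2-Aa at 0.01 (SE 0.10). Over all 104 pairs, 62 intervals lay within 1.5-fold and 96 within 2-fold. In Microfold cells only 1 of 8 lay within 1.5-fold.

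The CPM ranges of the genotypes did not overlap in 6 of the 104 pairs, 3 higher and 3 lower in mutants. Over all genes and classes this held for 7.8% of pairs, so the members' count was not above the background. By class it held for 22.3% of genes in Microfold, 9.14% in Neuroendocrine, 8.96% in Tuft, 8.15% in Keratinocyte, 7.91% in Secretory, 6.91% in Transitional, 6.64% in Aire-expressing, 6.63% in Aire-adjacent, 5.72% in TA, 5.1% in Immature and 4.59% in Ciliated cells. In Tuft cells H2-Aa stood at 138, 137 and 155 CPM in controls and 122.5, 134, 120 and 128 in mutants, which edgeR estimated at -0.19 on the log2 scale (SE 0.07, adjusted p = 0.404). In Microfold cells H2-Oa stood at 41.3, 90.4 and 78.8 CPM in controls and 104, 168 and 144 in 3 mutants, an edgeR estimate of 0.91 on the log2 scale (SE 0.32, adjusted p = 0.172). Microfold cells were few, 18 to 33 per sample, and mutant 4 with 8 cells was left out.

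In the same Microfold samples H2-Aa stood at 1749, 2273 and 1884 CPM in controls against 1695, 1420 and 1658 in mutants, and Cd74 at 4133, 6133 and 5831 against 7756, 7535 and 6637. Neither passed the test (edgeR adjusted p = 0.377 and 0.368). The 8 Microfold cells of mutant 4 had H2-Oa at 157 CPM, above all controls, H2-Aa at 1232 CPM, below all controls, and Cd74 at 5000 CPM, inside the control range. Cd74 in Neuroendocrine cells, the remaining pair with an unadjusted p under 0.05, stood at 1939, 2486 and 1983 CPM in controls and 2634, 2287, 2623 and 2486 in mutants. The edgeR estimate was 0.25 on the log2 scale (SE 0.09, adjusted p = 0.449). The other non-overlapping pairs were H2-DMa in TA cells, lower in mutants, and H2-Ob in Neuroendocrine cells, higher in mutants.

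**Figure D5:**
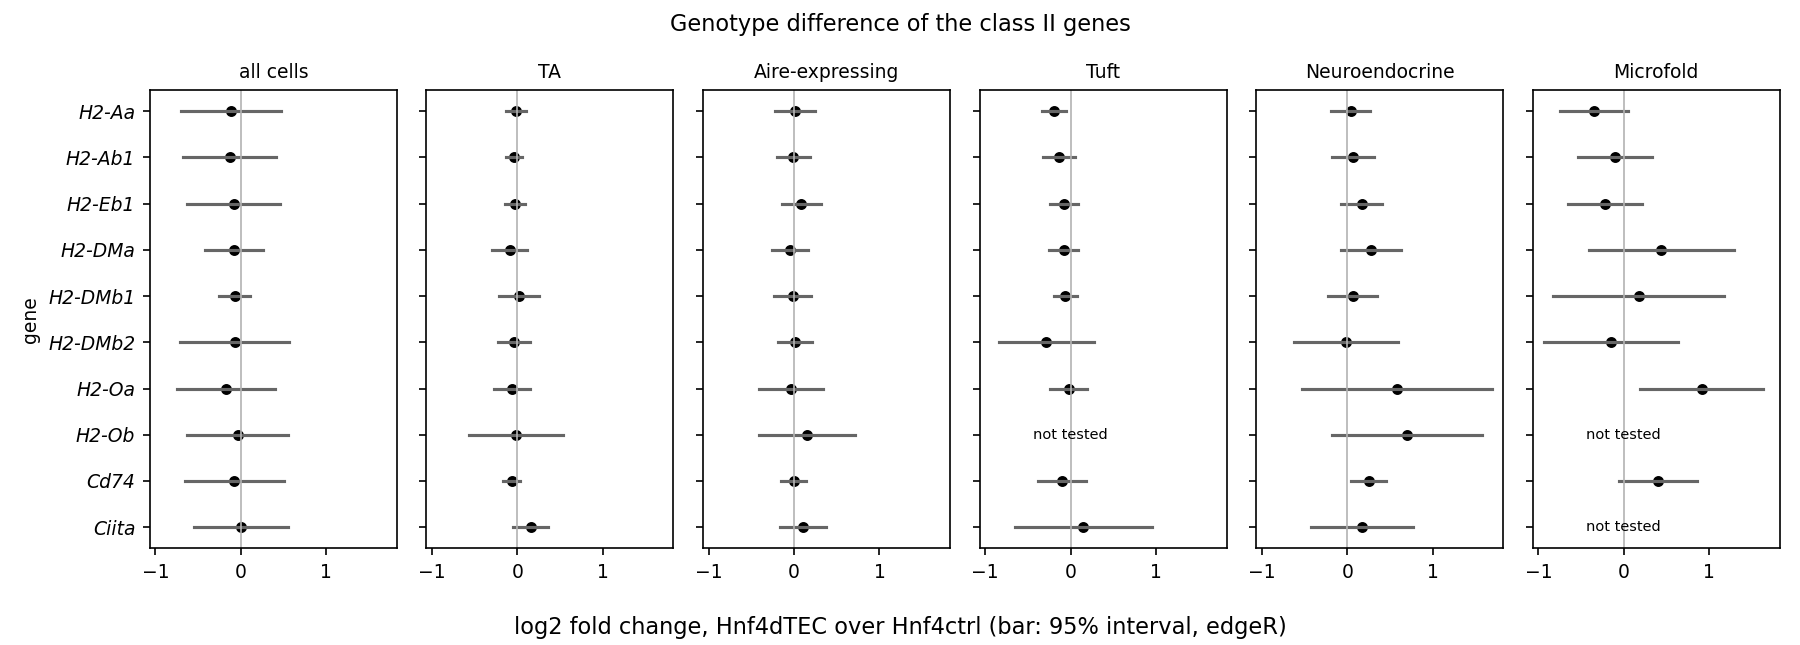
Log2 fold change of Hnf4dTEC over Hnf4ctrl for the 10 class II genes over all cells and in 5 classes; points are edgeR estimates and bars 95% intervals. Intervals are narrow in TA and Aire-expressing cells and wide over all cells and in Microfold cells, where H2-Oa stands at 0.91.

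Whether a member's genotype difference varied between classes was tested in 1 fit over 76 sample and class sums. None of the 10 passed the edgeR F test, beside 69 of 15957 genes (0.432%). Cd74 came nearest (F = 2.04, adjusted p = 0.609) and was the 1 member with an unadjusted p under 0.05. Without the filter on low counts Cd74 did pass (adjusted p = 0.000151), in a fit that called 3.76% of all genes.

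Lists of neighbouring functions were counted in the same fits, in which 6.65% of all genes over all cells had an unadjusted p under 0.05 and 0.184% were called. Of 24 genes for class II transcription 0 were higher and 0 lower in mutants over all cells (2 with an unadjusted p under 0.05, median log2 fold change -0.02). Of 26 genes tested for class II antigen processing 0 passed in either direction (1, median -0.04), of 18 class I presentation genes 0 (3, median -0.06) and of 10 costimulation genes 0 (2, median -0.14), beside a median of 0.00 over all genes. Within classes 0 of 223, 253, 187 and 91 pairs of those lists passed. For Nlrc5 over all cells edgeR gave -0.22 on the log2 scale (SE 0.05, adjusted p = 0.268).

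Some haematopoietic cells carry class II, and markers of haematopoietic cells, T cells among them, were counted beside these results. The 21 genes of a list, chosen after these data were seen and restricted to markers of lymphoid and myeloid cells summed to 25.0 to 35.4 CPM in controls and 22.6 to 38.2 in mutants over all cells, 111 to 194 in Aire-expressing and 5.56 to 8.70 in Tuft cells. All 21 had UMIs, from 4 of Siglech to 561 of C1qb. Without the cells that held 2 or more UMIs of that list, 139 of 140 class levels moved by less than 1 SD between samples, and 0 members were called over all cells or within classes.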

How the data were processed

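Droplet 3′ single-cell RNA-seq was made from mTEClo of 3 control and 4 mutant samples, told apart by antibody tags. The deposited matrix holds UMI counts per gene and cell that the authors made with Cell Ranger 6.1.0 and Seurat 4.0.2 on mm10, per the submitters' processing notes, while the matrix header names another Cell Ranger version. The strand setting of the counting is not given in the sources used here. The authors' cell table gave samples and classes for 9185 of 18089 barcodes, and only those were used. No doublet caller was run, and the 293 cells whose second tag was over 20% were left out as an alternative.

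For each sample the counts were added up over its cells, in all or by class (at least 10 cells), and tested with edgeR 4.0.16 (TMM, filterByExpr, quasi-likelihood) over all genes with Benjamini-Hochberg adjustment at 0.05 (R 4.3.3). A class needed 3 such samples per genotype. DESeq2 1.42.0, no count filter, single samples left out, other cell filters and a replicate block were alternatives. Levels are CPM without TMM. For shares, cells were thinned to 5000 UMIs. The members and gene lists were chosen with earlier results of these data known. Named genes are all 10 members, partner genes by role, and the 5 non-members most like each of Ciita and H2-Aa. Hnf4a, Hnf4g and markers of cell types are named as checks, and the genes of the closing section were chosen after their values were seen. On simulated data 58% of 200 genes changed by 2-fold were recovered over all cells (21187 genes) and 63.5% in TA cells (10423 genes), and 22% and 30% of those changed by 1.5-fold. The changed genes were drawn at random and given the spread typical of genes at their level, so these rates need not hold for the members. Samples of the same number did not deviate together, so numbers were not taken to pair samples. Python 3.11.15 was used for sums, levels and figures. The second library, of the antibody tags, has no group and was not used apart from the tag counts in the matrix.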

Additional observations from a re-analysis of the deposited data

Results flagged for a closer look

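Among 110 sets of 4 mutant samples (1 member in 1 class), 5 held a sample far from the other 3, and chance gives about 1 in 20. H2-Aa in TA cells stood at 2531 CPM in mutant 1, against 2801 to 2854 in the others. H2-Aa in Transitional cells stood at 2611 CPM in mutant 2, against 2867 to 2914. H2-Ab1 in Aire-expressing cells stood at 5491 CPM in mutant 3, against 4626 to 4735. H2-Eb1 in Keratinocyte cells stood at 883.6 CPM in mutant 3, against 728.1 to 737.2. H2-DMb1 in Aire-adjacent cells stood at 221.7 CPM in mutant 4, against 145.7 to 157.2, and that value rests on 119 UMIs.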

How the results depend on the processing

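Over all cells and within classes, 0 members were called by edgeR in every alternative run, with DESeq2, without the count filter, with single samples left out, without cells of mixed tags or haematopoietic UMIs, and, for all cells, without Tuft or Entero-hepato cells or with classes weighted equally. Within classes the filter on 2 or more haematopoietic UMIs left 25 pairs to test and a minimum of 20 cells left 76, against 104. With a replicate block 0 of 10 and 0 of 104 were called (lowest adjusted p 0.8055 and 0.1217). Same-numbered samples had correlations of 0.229, 0.0837 and 0.0432. The test of differences between classes called 1 of 10 members (Cd74) without the count filter, and the cause was not tested.

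The signs over all cells were not stable for most members. H2-DMb1 kept its sign with single samples left out, at -0.154 to -0.0029 on the log2 scale. With classes weighted equally the log2 fold change was 0.047 for H2-DMa, 0.030 for H2-DMb2, 0.18 for H2-Ob and 0.022 for Cd74. Without Tuft cells it was 0.0275 for H2-DMb2, 0.060 for H2-Ob and 0.012 for Cd74. Without cells holding 2 or more haematopoietic UMIs, which leaves 1389 cells, it was 0.019 for H2-DMa and -0.20 for Ciita, and 5 of 10 members had an unadjusted p under 0.05 (lowest edgeR adjusted p 0.3201). That list holds genes found widely in these classes, such as Cd52, Lyz2, Laptm5 and Rac2. The log2 fold change of Ciita in all cells was -0.068 with the replicate block, -0.035 with the restricted haematopoietic list, an alternative added after the data were seen, and -0.0002 without Entero-hepato cells, against 0.0014. With single samples left out it ranged from -0.35 to 0.19 for H2-Aa, -0.36 to 0.14 for H2-Ab1, -0.30 to 0.21 for H2-Eb1, -0.23 to 0.10 for H2-DMa, -0.32 to 0.29 for H2-DMb2, -0.41 to 0.13 for H2-Oa, -0.24 to 0.31 for H2-Ob, -0.30 to 0.24 for Cd74 and -0.22 to 0.31 for Ciita, each lowest without control 1 and highest without control 3. Of 80 class levels, 51 moved by over 1 SD under that haematopoietic filter. Of 150 shares of cells, 108 moved without thinning. H2-Ob in 5 classes and Ciita in Microfold cells had too few counts to test.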

Other observations

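Of 469 TA cells thinned to 5000 UMIs, 8 held no UMI of any member, whereas the median was 93. Genes named here were chosen after their values were seen, and the counts that follow are unthinned, at which 5 of the 8 cells held 1 to 6 UMIs of the members. Of those 8 cells, 5 held 25 to 106 UMIs of the T cell receptor genes Trbc1 and Trbc2, against 1 of the other 461 with 10 or more. In another, 11521 UMIs were from Pth, the parathyroid hormone gene, and 1213 from Chga, and 1 of the other 461 cells held 10 or more Pth UMIs. In another, 1118 UMIs were from Prtn3 and 689 from Elane, both granule proteases of myeloid cells. Prtn3, Elane, Mpo and Ctsg together reached 10 or more UMIs in 3 of the other 461 cells. The remaining cell, from control 2 with 30605 UMIs, held 0 UMIs of all these genes, so not all 8 cells showed such markers. Epcam was found in 3 of the 8 and in 458 of the other 461, and Mki67, a gene of dividing cells, in 8 and in 414.

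Of 3882 Tuft cells, 12 cells from 6 samples held at least 50 class II UMIs. Summed, they had H2-Aa at 2275 CPM against 124.7 in the other 3870, and Cd74 at 6213 against 254.4. The cells were picked by the UMIs of the members, so this excess of H2-Aa and Cd74 is built in. Their Trpm5 level was 243.5 CPM against 620.6, and Dclk1 was 819.6 against 2175. Lyz2 stood at 2661 against 58.5 and Cd52 at 1592 against 35.3, whereas Ptprc, the gene of CD45, stood at 29.7 against 49.5. Among all classes Lyz2 was highest in Klk-rich cells (1873 CPM) and Cd52 in Aire-adjacent cells (2461 CPM). None had mixed tags, and doublets among them were not tested otherwise.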
